A study of Mus musculus with 7 samples.

Results

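The 10 genes described here are the keratins that mark luminal, basal and epidermal layers in mammary gland and skin. Krt8, Krt18, Krt19 and Krt7 are keratins of simple and luminal epithelium, Krt5, Krt14, Krt15 and Krt17 are keratins of basal and stratified epithelium, Krt10 marks the suprabasal epidermis, and Krt23 is a further type I keratin. The members were chosen by name, and 10 of 10 names were found, each as 1 entry of a table of 38579 gene entries that holds 54 keratin genes. RNA was sequenced from fetal mammary cells of CD1 mice at E17.5 (a late stage of gestation), sorted as primary cells into 4 fractions and 7 libraries to examine a pair of sorting strategies. The labels name 2 fractions as fetal mammary stem cells (fMaSC) and 2 as stroma, and they call libraries of the same fraction biological replicates. Sorting on a Sox10-Venus fluorescent reporter together with EpCAM, an epithelial adhesion molecule, yielded 2 libraries of Sox10+EpCAM+ fMaSC and 1 library of EpCAM-negative stroma. Sorting on CD24 and CD49f (integrin alpha 6) yielded 2 libraries each of CD24+CD49f+ fMaSC and of CD24low stroma. All 7 libraries are marked as lineage-negative, with lineage-positive cells removed, by the sorting labels in the CD24 sort and by column headers in the Sox10 sort. The header of the EpCAM-negative stroma also calls it Sox10-negative. The labels give the CD1 strain for all 4 groups and no treatment for any, and they do not say how many embryos were pooled for a library. The fMaSC fractions are populations defined by surface markers or a reporter, so each holds whatever mixture of cells passes the gate.

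Keratins are the intermediate filament proteins of epithelial cells. An acidic type I keratin pairs with a basic type II keratin to build the filament, and cells switch pairs as they take on a layer. Krt8 (type II) and Krt18 (type I) form the pair of simple and luminal epithelia, Krt5 (type II) and Krt14 (type I) form the pair of the basal layer, and Krt1 with Krt10 replaces the basal pair as epidermal cells leave the basal layer. In the adult mammary gland Krt8 and Krt18 mark the luminal layer and Krt5 and Krt14 the basal layer, while cells of the embryonic rudiment are known to carry keratins of both.

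Levels are FPKM, the fragments normalised for transcript length and for the size of the library, which allow genes to be compared per length. From low FPKM values that match whole numbers of fragments, the depth was estimated at 23.9 to 36.4 M fragments per library, so that 1 fragment on a transcript of 2 kilobases is worth 0.0151 to 0.0229 FPKM. Estimates of fragment number for a member are therefore approximate and cover counting error only. Epcam, the antigen of one of the sorts, was at 219 and 230.3 FPKM in the Sox10+EpCAM+ libraries, 137 and 88.5 in the CD24+CD49f+ libraries and 0.428 to 1.19 in the stroma libraries. The 13 fibroblast and matrix markers summed to 62.3 and 101 FPKM in the Sox10+EpCAM+ libraries, 2798 and 4296 in the CD24+CD49f+ libraries and 8015 to 9345 in the stroma libraries, and none of them was at 0 in any library. The summed level of 6 erythroid markers was 6870 FPKM in CD24+CD49f+ fMaSC replicate 1 and 85.3 to 731 in the other 6 libraries. The part of these markers in the keratin results was not tested.

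The members lie in the type I and type II keratin clusters of the mouse genome, given here in GRCm38 coordinates. Type I members with 1 exception are on chromosome 11: Krt10 (ENSMUSG00000019761) at chr11:99385254-99389364, Krt23 (ENSMUSG00000006777) at chr11:99477974-99493137, Krt15 (ENSMUSG00000054146) at chr11:100131758-100135928, Krt19 (ENSMUSG00000020911) at chr11:100140810-100148665, Krt14 (ENSMUSG00000045545) at chr11:100203162-100207548 and Krt17 (ENSMUSG00000035557) at chr11:100256217-100261029, all on the minus strand. Chromosome 15 carries the type II members and the type I gene Krt18: Krt7 (ENSMUSG00000023039) at chr15:101411043-101430313 on the plus strand, Krt5 (ENSMUSG00000061527) at chr15:101707070-101712891 on the minus strand, Krt8 (ENSMUSG00000049382) at chr15:101996711-102004342 on the minus strand and Krt18 (ENSMUSG00000023043) at chr15:102028216-102032026 on the plus strand. Krt8 and Krt18 are neighbours that point away from each other, with GENCODE starts at 102004482 and 102028180, 23698 bases apart, and 0 GENCODE genes between them. Antisense or overlapping transcripts are annotated at Krt5, Krt8, Krt7 and Krt10, and no source used here says that the counting used strand, so reads of a gene and of its antisense partner cannot be told apart. Of the 100-base windows of the transcript, 17.1% at Krt8 also occur elsewhere, mainly in the pseudogene Krt8-ps, 3.81% at Krt5, mainly in Krt6a, 2.88% at Krt14, in Krt16, and 0 at the other 7 members, so a read from those windows could have been assigned to either gene.

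Promoters of 7 members were matched in RefSeq (GRCm38.p6), and Krt15, Krt17 and Krt19 are named only. Those of 4 are shown, namely the paired neighbours Krt8 and Krt18, the basal gene Krt5 and Krt10, because the first 3 stood far above the last in the fMaSC libraries. Each runs 5′ to 3′ on the gene's own strand and ends just before the more upstream of the RefSeq and GENCODE starts, at chr15:102004483-102004592 (minus strand) for Krt8, chr15:102028060-102028179 (plus strand) for Krt18, chr15:101712906-101713025 (minus strand) for Krt5 and chr11:99389365-99389484 (minus strand) for Krt10. Capitals mark a match to a motif.
Krt8: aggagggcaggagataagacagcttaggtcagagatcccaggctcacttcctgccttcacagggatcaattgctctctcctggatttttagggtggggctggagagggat
Krt18: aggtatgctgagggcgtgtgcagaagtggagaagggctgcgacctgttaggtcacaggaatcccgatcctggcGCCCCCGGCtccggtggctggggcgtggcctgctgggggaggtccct
Krt5: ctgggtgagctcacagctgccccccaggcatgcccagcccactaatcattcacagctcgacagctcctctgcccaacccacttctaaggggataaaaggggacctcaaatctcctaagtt
Krt10: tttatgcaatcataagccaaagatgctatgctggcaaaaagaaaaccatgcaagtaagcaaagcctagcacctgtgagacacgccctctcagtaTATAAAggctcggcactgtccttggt
The motifs searched on both strands in the 250 bases before the RefSeq start were the TATA box letters TATAAA, the Sp1 box GGGCGG and the AP-2 motif GCCNNNGGC, the last of which can overlap an Sp1 box. They occur in 12.4%, 32.7% and 13.7% of all 32851 promoters. Among the 7 matched members, TATAAA was found at Krt10 alone, GCCNNNGGC at Krt18 and Krt7, and GGGCGG at Krt7 alone. A match is a description of the letters and not of a bound site, and the RefSeq starts of Krt14 and Krt7 lie 1518 and 1360 bases inside the GENCODE gene.

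The luminal pair Krt8 and Krt18 and the basal pair Krt5 and Krt14 were both high in every fMaSC library, and their stroma means were 0.284% to 1.22% of the fMaSC means of the same sort. In 9 of the 10 genes all 4 fMaSC libraries lay above all 3 stroma libraries, against 23.3% of the 14418 genes tested, and Krt10 was the exception. For the tests, log2(FPKM + 1) was fitted by limma over all genes with at least 1 FPKM in 2 or more libraries, and a gene is called where its Benjamini-Hochberg adjusted p over all 14418 genes is under 0.05. All 10 members passed this filter, but only Krt19 and Krt10 would have passed on the stroma libraries alone. The other 8 needed fMaSC libraries to pass, so the filter favoured members that were high there, and they include 7 of the 8 members called in each sort below, so the counts and medians describe the members and support nothing. Between CD24+CD49f+ fMaSC and CD24low stroma, 8 members were called higher, 0 lower and 2 (Krt7 and Krt10) neither way, where 10.7% of all genes were called, 7.78% higher and 2.94% lower. The median difference was 3.28 on the log2 scale over the members and 0.13 over all genes tested. Between Sox10+EpCAM+ fMaSC and EpCAM-negative stroma, 8 members were again called higher and 0 lower, where 26.1% of all genes were called, 12.5% higher and 13.6% lower. The medians were 4.16 over the members and 0.09 over all genes. The EpCAM-negative group is 1 library, so its spread is taken from the other groups. With both sorts fitted together, 9 members were called higher and 0 lower, where 25.1% of all genes were called, 15.6% higher and 9.5% lower. In bulk RNA, fewer cells with a keratin and less keratin RNA per cell cannot be told apart.

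**Figure D1:**
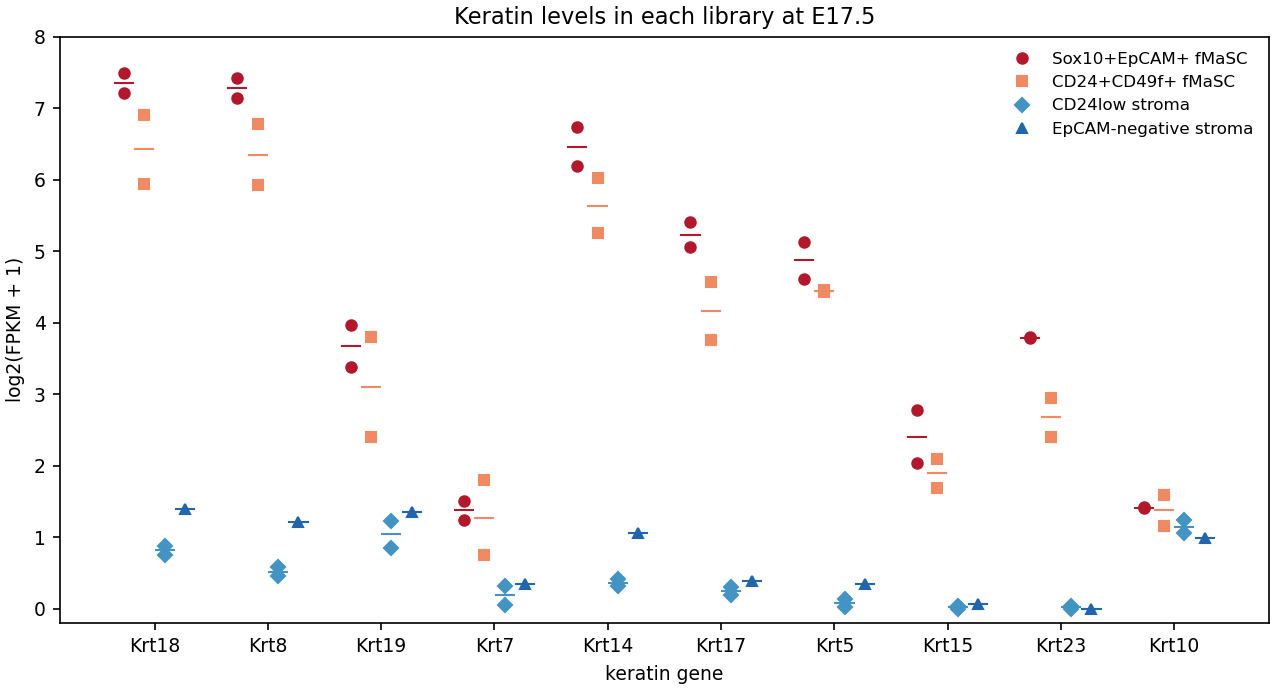
Levels of the 10 keratins in each of the 7 libraries, as log2(FPKM + 1) on the vertical axis, with 1 point per library, colour and shape for the sorted fraction and a short line at each group mean. The fMaSC points of Krt18, Krt8, Krt14, Krt17 and Krt5 sit far above the stroma points, while the points of Krt10 lie together.

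Krt8 and Krt18 had the highest levels of the members in every fMaSC library. Krt8 was at 140.0 and 169.8 FPKM in the Sox10+EpCAM+ libraries, 108 and 59.7 in the CD24+CD49f+ libraries, 0.498 and 0.367 in the CD24low libraries and 1.30 in the EpCAM-negative library. Krt18 was at 147 and 179.9 FPKM in the Sox10+EpCAM+ libraries, 119 and 60.5 in the CD24+CD49f+ libraries, 0.839 and 0.683 in the CD24low libraries and 1.63 in the EpCAM-negative library. For both genes the highest value was in Sox10+EpCAM+ fMaSC replicate 2, the lowest fMaSC value was in CD24+CD49f+ fMaSC replicate 2, and fMaSC and stroma did not overlap. Among all 38579 entries Krt18 ranked between 432 and 989 in the fMaSC libraries and between 11933 and 13607 in the stroma libraries. The difference of Krt8 on the log2(FPKM + 1) scale was 5.83 (SE 0.30, limma adjusted p = 0.000396) in the CD24 sort and 6.07 (SE 0.37, limma adjusted p = 0.000341) in the Sox10 sort. For Krt18 it was 5.61 (SE 0.33, limma adjusted p = 0.00051) and 5.96 (SE 0.40, limma adjusted p = 0.000421). Untransformed, the stroma mean of Krt8 was 0.514% of the fMaSC mean in the CD24 sort and 0.842% in the Sox10 sort. The stroma signal of Krt8 came to an estimated 15.6 to 62.3 fragments per library, against 2874 to 9627 in fMaSC.

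Krt19, a small type I keratin of simple epithelia that lacks most of the tail domain, stood out from the pair by its level in stroma. It was at 9.36 and 14.6 FPKM in the Sox10+EpCAM+ libraries, 12.9 and 4.26 in the CD24+CD49f+ libraries, 1.35 and 0.797 in the CD24low libraries and 1.55 in the EpCAM-negative library. The fMaSC libraries lay above the stroma libraries without overlap, but the stroma mean was 12.5% of the fMaSC mean in the CD24 sort and 12.9% in the Sox10 sort. The log2 difference was 2.06 (SE 0.47, limma adjusted p = 0.0465) in the CD24 sort and 2.32 (SE 0.58, limma adjusted p = 0.0326) in the Sox10 sort. Both calls lie near the threshold. In the CD24 sort Krt19 no longer passed without either CD24low library (limma adjusted p = 0.152 and 0.227 without replicates 1 and 2) or either Sox10+EpCAM+ library (0.0876 and 0.081), nor with a pseudocount of 5, no filter, the filter of 5 FPKM, TPM scaling, quantile normalization, no trend or only the groups compared (0.0524 to 0.16). In the Sox10 sort it no longer passed without either Sox10+EpCAM+ library (0.0755 and 0.128) or either CD24low library (0.0653 and 0.0649), nor with a pseudocount of 5, no filter or TPM scaling (0.0528 to 0.104). Fitted over both sorts, Krt19 was 2.16 higher (SE 0.35, limma adjusted p = 0.00703).

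Krt7, the type II keratin of many glandular ducts, was the lowest of the simple keratins. It was at 1.37 and 1.83 FPKM in the Sox10+EpCAM+ libraries, 2.46 and 0.687 in the CD24+CD49f+ libraries, 0.0390 and 0.248 in the CD24low libraries and 0.271 in the EpCAM-negative library. The highest and the lowest fMaSC value were both in CD24+CD49f+ libraries, and all 4 lay above stroma. The log2 difference was 1.09 (SE 0.35, limma adjusted p = 0.112) in the CD24 sort and 1.03 (SE 0.42, limma adjusted p = 0.127) in the Sox10 sort, and neither passed. Without CD24+CD49f+ fMaSC replicate 2 the CD24-sort difference was 1.60 and passed. The Sox10-sort difference of 1.03 passed without CD24+CD49f+ fMaSC replicate 1 or replicate 2, and with only the groups compared. Each of these fits also called more of all genes than the main fit, and each has 1 library in a group. Over both sorts Krt7 passed (1.06, SE 0.26, limma adjusted p = 0.0283), a call that ended with no filter (0.0621), with quantile normalization (0.0837), and without either Sox10+EpCAM+ library, either CD24low library or the EpCAM-negative library (0.0515 to 0.11).

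Of the basal keratins Krt14, the type I partner of Krt5, was the highest. It was at 71.9 and 105 FPKM in the Sox10+EpCAM+ libraries, 63.9 and 37.2 in the CD24+CD49f+ libraries, 0.326 and 0.249 in the CD24low libraries and 1.08 in the EpCAM-negative library. Krt5, the type II partner, was at 23.4 and 34.1 FPKM in the Sox10+EpCAM+ libraries, 21.02 and 20.6 in the CD24+CD49f+ libraries, 0.0985 and 0.0198 in the CD24low libraries and 0.266 in the EpCAM-negative library. Neither gene overlapped between fMaSC and stroma, and Krt5 is the member whose CD24+CD49f+ libraries lay closest together. The log2 difference of Krt14 was 5.27 (SE 0.31, limma adjusted p = 0.00051) in the CD24 sort and 5.40 (SE 0.38, limma adjusted p = 0.000464) in the Sox10 sort. For Krt5 it was 4.37 (SE 0.21, limma adjusted p = 0.000396) and 4.53 (SE 0.26, limma adjusted p = 0.000316). The value of Krt5 in CD24low stroma replicate 2 corresponds to an estimated 1.0 fragment.

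Krt17, a basal keratin also induced in wounded skin, was at 32.2 and 41.4 FPKM in the Sox10+EpCAM+ libraries, 22.6 and 12.5 in the CD24+CD49f+ libraries, 0.144 and 0.232 in the CD24low libraries and 0.311 in the EpCAM-negative library. Both Sox10+EpCAM+ libraries were above both CD24+CD49f+ libraries, and all 4 were above stroma. Its log2 difference was 3.91 (SE 0.30, limma adjusted p = 0.00121) in the CD24 sort and 4.84 (SE 0.36, limma adjusted p = 0.000548) in the Sox10 sort. Krt15, a basal keratin known from hair follicle stem cells, was at 3.10 and 5.83 FPKM in the Sox10+EpCAM+ libraries, 3.28 and 2.23 in the CD24+CD49f+ libraries and 0.0261 and 0.0469 in CD24low stroma replicate 2 and EpCAM-negative stroma, and was listed at 0 in CD24low stroma replicate 1. Its fMaSC fractions overlapped each other and lay above stroma. The log2 difference of Krt15 was 1.87 (SE 0.28, limma adjusted p = 0.0115) in the CD24 sort and 2.34 (SE 0.34, limma adjusted p = 0.00504) in the Sox10 sort. Krt15 no longer passed in the CD24 sort when CD24low stroma replicate 1 (adjusted p = 0.0808) or replicate 2 (0.089) was left out, nor with a pseudocount of 5 (0.0515) or no filter (0.0648).

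Krt23, a type I keratin found in several glandular epithelia, was at or near 0 in stroma and was the only member called between the fMaSC fractions. It was at 12.9 and 12.8 FPKM in the Sox10+EpCAM+ libraries, 6.70 and 4.30 in the CD24+CD49f+ libraries and 0.0287 in CD24low stroma replicate 2, an estimated 1.0 fragment, and was listed at 0 in CD24low stroma replicate 1 and in EpCAM-negative stroma. The 2 Sox10+EpCAM+ libraries nearly coincided, and both were above the CD24+CD49f+ libraries. The log2(FPKM + 1) difference was 2.65 (SE 0.21, limma adjusted p = 0.00149) in the CD24 sort and 3.79 (SE 0.26, limma adjusted p = 0.000447) in the Sox10 sort. Since the stroma values are at or near 0, both sizes are set by the added 1 FPKM, and no fold is given.

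Krt10, the suprabasal epidermal keratin, was not called in either sort. It was at 1.66 and 1.65 FPKM in the Sox10+EpCAM+ libraries, 2.01 and 1.22 in the CD24+CD49f+ libraries, 1.09 and 1.35 in the CD24low libraries and 0.987 in the EpCAM-negative library. CD24low stroma replicate 2 lay above CD24+CD49f+ fMaSC replicate 2, so the groups overlapped. The log2 difference was 0.23 (95% interval -0.25 to 0.71, limma adjusted p = 0.533) in the CD24 sort and 0.42 (95% interval -0.17 to 1.01, limma adjusted p = 0.237) in the Sox10 sort, and the stroma means were 75.2% and 59.6% of the fMaSC means. Scaled to a fixed total (TPM), the Sox10-sort difference was -0.04, while with only the groups compared it was 0.42 and passed. Over both sorts Krt10 passed at 0.43 without CD24+CD49f+ fMaSC replicate 2. Both fits in which Krt10 passed also called more of all genes than the main fits, and both have 1 library in a group. Krt1, the type II partner of Krt10, was at 0.191 and 0.322 FPKM in the Sox10+EpCAM+ libraries, 0.105 and 0.219 in the CD24+CD49f+ libraries and 0.0291, 0 and 0.0157 in stroma, under the filter everywhere. Krt10 therefore exceeded Krt1 in all 7 libraries. An antisense gene, Gm11940, overlaps 558 bases of Krt10.

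**Figure D2:**
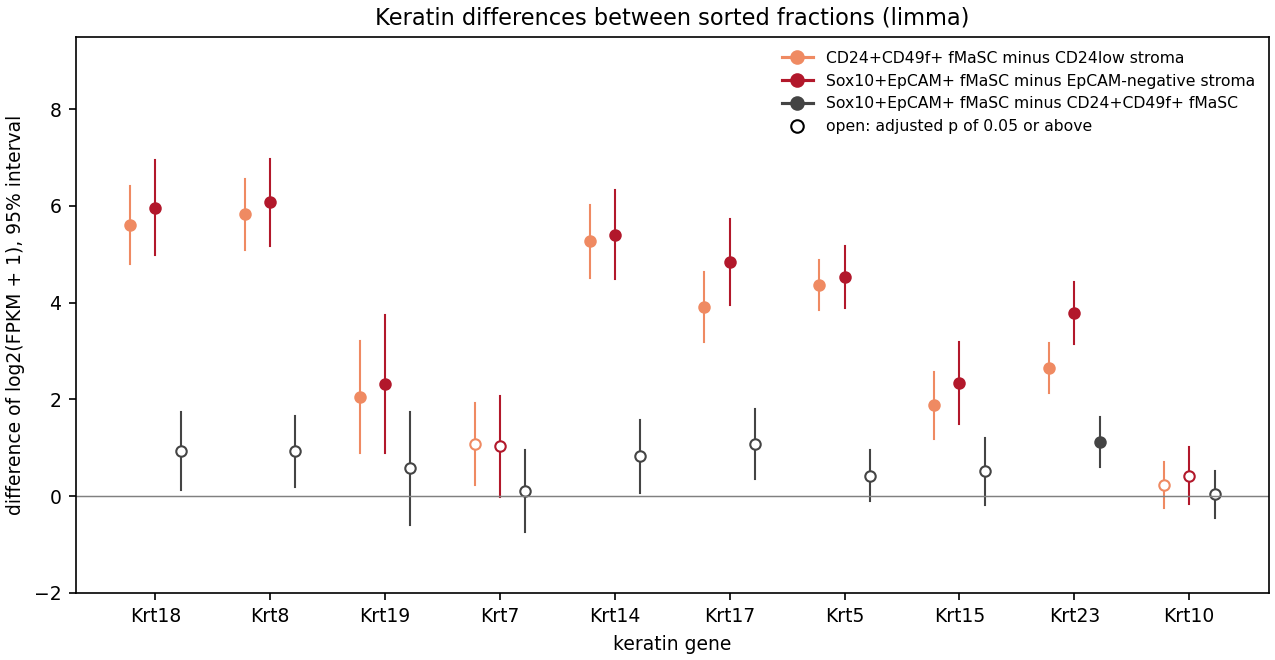
Differences of log2(FPKM + 1) between fractions for each keratin (vertical axis), with the limma estimate as a point, its 95% interval as a line and open points where the adjusted p is 0.05 or above. The differences from stroma run from 0.23 for Krt10 to 6.07 for Krt8, and between the fMaSC fractions only the point of Krt23, at 1.12, is filled.

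Within the fMaSC libraries the luminal pair stood above the basal pair. The order Krt18, Krt8, Krt14 held in all 4 fMaSC libraries. Among the Sox10+EpCAM+ libraries the means ran from 164 ± 23.1 FPKM (SD, n = 2) for Krt18 to 155 ± 21.04 for Krt8, 88.7 ± 23.7 for Krt14, 36.8 ± 6.45 for Krt17, 28.8 ± 7.59 for Krt5, 12.9 ± 0.0301 for Krt23, 12.0 ± 3.71 for Krt19, 4.46 ± 1.93 for Krt15, 1.66 ± 0.0114 for Krt10 and 1.60 ± 0.325 for Krt7. Neighbours whose libraries overlapped were Krt18 and Krt8, Krt17 and Krt5, Krt23 and Krt19, and Krt10 and Krt7. In the CD24+CD49f+ libraries Krt5 (20.8 ± 0.298) stood above Krt17 (17.6 ± 7.20) and Krt19 (8.58 ± 6.10) above Krt23 (5.50 ± 1.70), and in both pairs the libraries overlapped. There Krt8 and Krt14, and Krt17 and Krt19, also overlapped between libraries.

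The partners of a filament pair differed in how closely they matched. The Krt18 level was 1.05 and 1.06 times that of Krt8 in the Sox10+EpCAM+ libraries and 1.10 and 1.01 times in the CD24+CD49f+ libraries, so the simple pair was near parity throughout. Krt14 was 3.07, 3.09 and 3.04 times Krt5 in 3 fMaSC libraries and 1.81 times in CD24+CD49f+ fMaSC replicate 2. The replicates of CD24+CD49f+ fMaSC had Krt5 in a ratio of 1.02 and the other 9 members in ratios of 1.47 to 3.59, with replicate 1 the higher each time. The FPKM summed over all genes was also higher in replicate 1, at 752737 against 424984. The 3 type II members summed to less than the 7 type I members, with type I at 1.69, 1.76, 1.75 and 1.51 times type II in the fMaSC libraries.

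The 4 basal keratins made up 30.5% and 33.8% of the summed basal and simple keratin FPKM in the Sox10+EpCAM+ libraries and 31.4% and 36.7% in the CD24+CD49f+ libraries. The ranges of the 2 fMaSC fractions overlapped in this share. Krt8, Krt18, Krt5 and Krt14 together made up 86.2% to 87.6% of the member sum in fMaSC, and the members were 96.9% to 98.0% of the FPKM of all 54 keratins there. In stroma the mixture differed. Krt19 took 19.9% to 30.8% of a member sum of only 4.00 to 7.44 FPKM, and Krt10 took 24.8% and 33.8% in the CD24low libraries and 13.3% in the EpCAM-negative library, against at most 0.602% in fMaSC. Shares and ratios are given as a description, with no test.

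**Figure D3:**
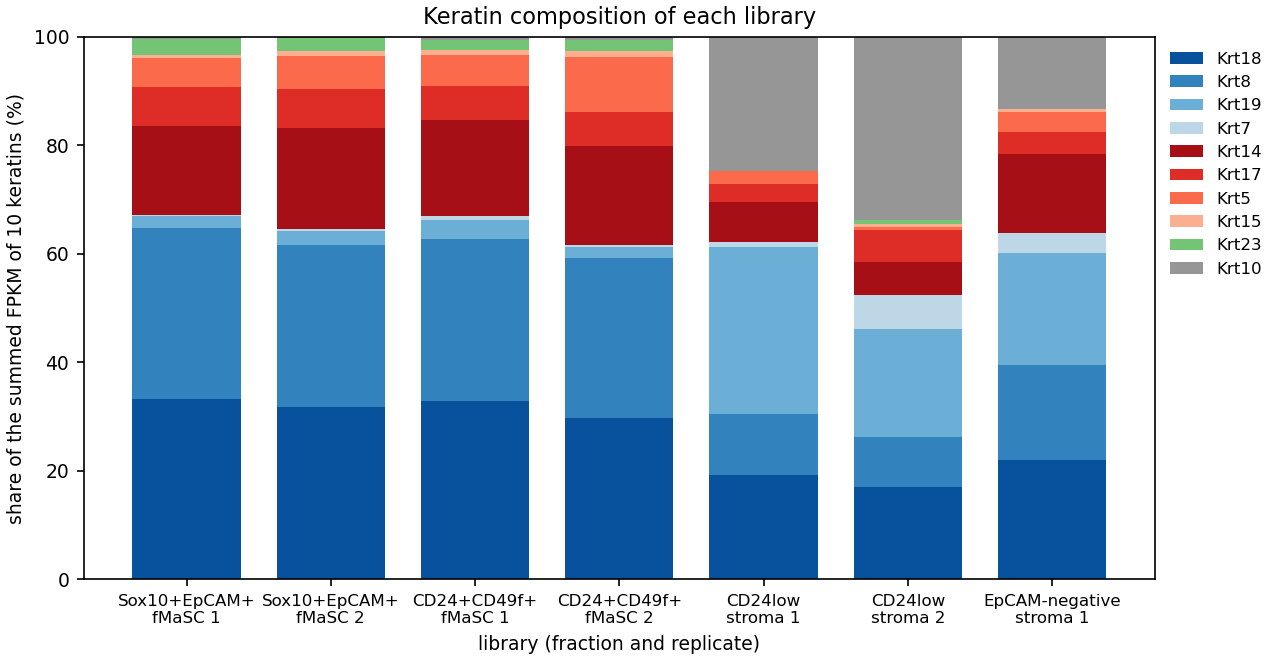
Share of each keratin in the summed FPKM of the 10 keratins (vertical axis, percent) in each library, with bars stacked from Krt18 at the bottom to Krt10 at the top. Krt18 and Krt8 fill the lower part of every fMaSC bar, up to 59.2% to 64.8%, and Krt19 and Krt10 are visible mainly in the stroma bars, whose sums are 4.00 to 7.44 FPKM.

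Between the fMaSC fractions, which share no library, the fitted difference was positive for all 10 members, and 1 passed the test. Krt23 was 1.12 higher on the log2 scale (SE 0.21, limma adjusted p = 0.0295), and 0 members were called lower, where 9.99% of all genes were called, 1.95% higher and 8.04% lower. The median difference was 0.70 over the members and -0.01 over all genes. The call of Krt23 ended without any 1 of 4 libraries, at adjusted p = 0.203 without Sox10+EpCAM+ fMaSC replicate 1, 0.183 without its replicate 2, and 0.0725 and 0.0721 without CD24low stroma replicates 1 and 2. Leaving out CD24+CD49f+ fMaSC replicate 1 leaves that fraction 1 library. The differences were then 1.20 for Krt14, 1.48 for Krt17, 1.35 for Krt8, 1.41 for Krt18 and 1.27 for Krt19. These genes and Krt23 were called higher there, but that fit also called more of all genes than the main fit, in both directions.

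For the other members the intervals leave room for sizeable differences. Krt17 differed by 1.07 (95% interval 0.35 to 1.80, limma adjusted p = 0.0798), Krt8 by 0.93 (0.19 to 1.66, adjusted p = 0.123), Krt18 by 0.93 (0.13 to 1.73, adjusted p = 0.152) and Krt14 by 0.82 (0.07 to 1.58, adjusted p = 0.176). These 4 genes and Krt23 were at an unadjusted p under 0.05. Krt19 (0.57, interval -0.59 to 1.73), Krt15 (0.51, interval -0.18 to 1.20), Krt5 (0.42, interval -0.10 to 0.95), Krt7 (0.10, interval -0.75 to 0.95) and Krt10 (0.04, interval -0.44 to 0.52) had limma adjusted p-values of 0.314 to 0.933. In 6 of the 10 members both Sox10+EpCAM+ libraries were above both CD24+CD49f+ libraries, against 21.2% of all genes tested, and in all 10 the lowest of the 4 was CD24+CD49f+ fMaSC replicate 2.

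The sort antigen Epcam was lower in the CD24+CD49f+ libraries as well. Set to the Sox10+EpCAM+ mean, Epcam stood at 61.0% and 39.4% in the CD24+CD49f+ libraries, Krt8 at 70.0% and 38.5%, Krt14 at 72.1% and 42.0%, Krt23 at 52.1% and 33.4%, and Krt5 at 73.1% and 71.6%. Relative to Epcam in the same library, a scale chosen after the values were seen and tied to the antigen of the Sox10 sort, Krt8 was at 63.8% and 73.7% in the Sox10+EpCAM+ libraries and 79.1% and 67.4% in the CD24+CD49f+ libraries, and these ranges overlapped. Krt23 was at 5.87% and 5.57% against 4.88% and 4.85% of Epcam and remained the higher in Sox10+EpCAM+ fMaSC. For Krt5 the order turned: it was at 10.7% and 14.8% of Epcam in the Sox10+EpCAM+ libraries and 15.3% and 23.3% in the CD24+CD49f+ libraries. Krt10, whose FPKM overlapped between the fractions, was likewise lower in Sox10+EpCAM+ fMaSC on this scale, at 0.759% and 0.716% against 1.47% and 1.38%. All 13 fibroblast and matrix markers were called lower in Sox10+EpCAM+ than in CD24+CD49f+ fMaSC, where 8.04% of all genes were called lower. The sum of these markers was 31.6% and 48.5% of the stroma mean in the CD24+CD49f+ libraries against 0.703% and 1.14% in the Sox10+EpCAM+ libraries. Their part in the keratin differences was not tested.

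**Figure D4:**
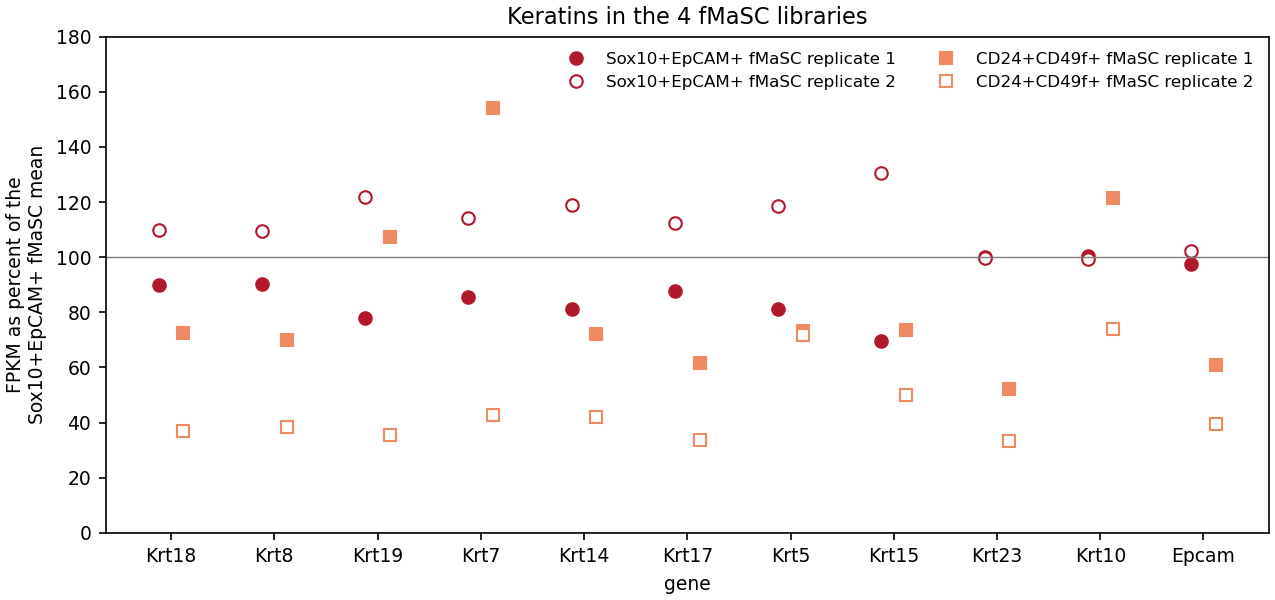
FPKM of each keratin and of Epcam in the 4 fMaSC libraries as percent of the Sox10+EpCAM+ mean (vertical axis), with circles for Sox10+EpCAM+ and squares for CD24+CD49f+ libraries, filled for replicate 1 and open for replicate 2. The open squares are the lowest points of every gene, from 33.4% for Krt23 to 73.9% for Krt10, and Epcam lies among the keratins at 61.0% and 39.4%. The library of the open squares also had the lowest summed FPKM of the 4.

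The size of the keratin difference from stroma was compared between the sorts through the contrast of both differences. In that contrast 0 members were called, where 1.51% of all genes were called, and 1 member, Krt23, had an unadjusted p under 0.05 (Sox10 sort higher by 1.14, 95% interval 0.31 to 1.96, limma adjusted p = 0.205). Without CD24+CD49f+ fMaSC replicate 1, Krt23 passed at 1.41, in a fit that has 1 library in that group and called more of all genes. Krt15, Krt17 and Krt23 stayed positive under every alternative run, while Krt5, Krt14, Krt8 and Krt18 turned negative with a pseudocount of 0.1. Between the stroma fractions 0 members were called and 0 were at an unadjusted p under 0.05, by limma, where 0.0277% of all genes were called. The EpCAM-negative library had the highest stroma value of 8 members, an order that rests on 1 library and whose share over all genes was not computed. Its Epcam level, 1.19 FPKM against 0.532 and 0.428 in the CD24low libraries, was also the highest, which was not tested as a source of the keratin signal.

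Among the other 44 keratins of the table, 4 reached 1 FPKM in at least 2 libraries, and 40 stayed under 1 FPKM in every library, Krt79 being the highest of them at 0.981. Krt80, a type II keratin with a broad epithelial distribution, was at 2.91 and 3.59 FPKM in the Sox10+EpCAM+ libraries, 2.95 and 3.45 in the CD24+CD49f+ libraries, 0.745 and 0.574 in the CD24low libraries and 0.469 in the EpCAM-negative library. Its fMaSC fractions coincided, and it was 1.34 higher than stroma in the CD24 sort (limma adjusted p = 0.00683) and 1.53 higher in the Sox10 sort (0.00396). Krt16, an inducible partner of Krt6 keratins, rose by 1.04 (limma adjusted p = 0.0206) and 1.72 (0.00338), from at most 0.0514 FPKM in stroma to 0.859 to 2.76 in fMaSC. Krt6a was 0.76 higher in the CD24 sort (limma adjusted p = 0.0504, not passing) and 1.04 higher in the Sox10 sort (0.018). Values of both are uncertain, since Krt16 shares read-length windows with Krt14 and Krt6a with Krt5, which are far higher in the same libraries. Krt36, a hair type keratin, went the other way. It was at 0 and 0.0610 FPKM in the Sox10+EpCAM+ libraries, 0.496 and 0.191 in the CD24+CD49f+ libraries, 1.28 and 1.68 in the CD24low libraries and 1.07 in the EpCAM-negative library, and it was lower in fMaSC by limma in the CD24 sort (-0.89, adjusted p = 0.0314) and the Sox10 sort (-1.01, adjusted p = 0.0209).

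Most genes of the epidermal program were at very low levels. For the lists that follow, the medians over all genes tested are 0.13 in the CD24 sort and 0.09 in the Sox10 sort, and the shares of all genes called are 7.78% higher and 2.94% lower in the CD24 sort and 12.5% higher and 13.6% lower in the Sox10 sort. Listed genes that reached 1 FPKM in fewer than 2 stroma libraries passed the filter only with fMaSC libraries. The filter thus favoured genes high in fMaSC, so the list counts and medians are descriptions and support nothing. Of 18 epidermal differentiation genes, 13 were under 1 FPKM in every library, among them Krt1, Krt2, the cornified envelope genes Lor and Ivl, and Flg, which encodes filaggrin. Of the 5 tested, 0 were called in the CD24 sort, and 3 were called higher and 1 lower in the Sox10 sort, against the shares given above. The 3 were Sprr1a (1.03, limma adjusted p = 0.0405), Calml3 (1.11, 0.0208) and Tgm1 (1.00, 0.0182), and the 1 was Sbsn (-1.39, 0.0226), with list medians of -0.02 and 1.00. Krtdap was at 3.35 to 10.6 FPKM in stroma and 0.107 to 2.83 in fMaSC, and passed in neither sort (-1.77 and -1.71). Over both sorts it was called lower (-1.75, limma adjusted p = 0.048). There 2 genes of the list were called higher and 2 lower, against 15.6% and 9.5% of all genes. Of 9 genes of periderm and stratified mucosa 5 were tested, of which 4 were called higher in the CD24 sort and 5 in the Sox10 sort, with medians of 1.04 and 1.72. The largest was Sfn, which encodes the adaptor protein stratifin, with differences of 5.02 and 5.92. All 11 hair follicle genes were under 1 FPKM in every library.

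Most genes for the junctions that anchor keratin filaments were higher in fMaSC. The limit of the filter given for the lists holds here. Perp, Pkp3 and Dsp, for example, were under 1 FPKM in every stroma library and passed only through fMaSC. Of 12 tested genes for desmosomes and keratin linkers, 10 were called higher and 0 lower in the CD24 sort, and 11 higher and 0 lower in the Sox10 sort, against 7.78% and 12.5% of all genes called higher, with medians of 2.31 and 2.86. Perp, a desmosomal membrane protein, was 4.65 and 5.59 higher in the CD24 and the Sox10 sort (limma adjusted p = 0.000396 and 0.000276). Pkp3, a plakophilin of the desmosomal plaque, was 4.20 and 5.48 higher (0.000396 and 0.00026), and Dsp, desmoplakin, which ties keratin filaments to the plaque, was 3.73 and 4.57 higher (0.00112 and 0.000527). Plec, the linker plectin, which many cell types use, did not pass in either sort (0.85, limma adjusted p = 0.256, and 0.00, 0.997). Of 9 genes for hemidesmosomes and basal adhesion, 7 were called higher and 0 lower in each sort, against the same 7.78% and 12.5%, with medians of 1.99 and 2.63. The largest differences were in Itga3, an integrin alpha chain (2.77 and 3.61), and Itgb4, the hemidesmosomal integrin chain (3.22 and 3.54). Itga6, which encodes the CD49f used in 1 of the sorts, belongs to this list.

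Most transcription factors known to act on keratin genes or on epithelial identity were also higher in fMaSC, under the same limit of the filter. Of 17 tested, 15 were called higher and 0 lower in each sort, against 7.78% and 12.5% of all genes called higher, with medians of 2.46 and 3.45. Between Sox10+EpCAM+ and CD24+CD49f+ fMaSC 9 were called higher and 0 lower, against 1.95% of all genes called higher. Tfap2c, an AP-2 factor, was at 44.5 and 43.9 FPKM in the Sox10+EpCAM+ libraries, 22.2 and 26.5 in the CD24+CD49f+ libraries and at most 0.154 in stroma, with differences of 4.54 and 5.29 (limma adjusted p = 0.000356 and 0.00026). Gata3, a luminal factor, was 3.71 and 4.32 higher (0.000396 and 0.000286), and Ovol1, an epithelial zinc finger factor, was 3.19 and 4.17 higher (0.000495 and 0.000276). Elf5, Gata3 and Foxa1 are also on the luminal list below and Trp63 on the basal list. Klf4 and Hes1 did not pass in either sort, with stroma at 40.3 to 71.4 and 59.7 to 81.7 FPKM.

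Non-keratin markers of the luminal and basal layers moved in both directions, and the same limit of the filter holds for them. Of 14 tested luminal markers, 10 were called higher and 0 lower in the CD24 sort, and 11 higher and 1 lower in the Sox10 sort, against 7.78% and 12.5% of all genes called higher, with medians of 2.62 and 3.69. The widest luminal differences were those of Csn3, the gene for kappa-casein (6.27 and 7.08, limma adjusted p = 0.00178 and 0.0011), with the claudin gene Cldn4 (5.04 and 5.89) and Wfdc18 (4.86 and 5.79) next in the Sox10 sort. The 1 lower in the Sox10 sort was Esr1 (-2.24), at 0.0917 and 0.0822 FPKM in the Sox10+EpCAM+ libraries and 2.68 to 4.92 in stroma. Over both sorts 2 were called lower, the receptor genes Esr1 (-1.39, limma adjusted p = 0.0292) and Prlr (-0.87, 0.0251), and 11 higher. Of all genes, 9.5% were called lower and 15.6% higher there. Of 14 basal markers, 6 were called higher and 2 lower in the CD24 sort, and 7 higher and 3 lower in the Sox10 sort, with medians of 0.47 and 0.60. Of all genes 7.78% were called higher and 2.94% lower in the CD24 sort, and 12.5% higher and 13.6% lower in the Sox10 sort. Trp63, the regulator of basal epithelium, was 1.74 and 2.44 higher (0.00412 and 0.00117), and Cdh3, P-cadherin, 3.49 and 4.62 higher (0.000943 and 0.000387). The receptor gene Procr was lower in the Sox10 sort (-3.39, limma adjusted p = 0.00293) and did not pass in the CD24 sort (-1.11, 0.108). The smooth muscle kinase gene Mylk was lower in both (-1.83 and -3.14, limma adjusted p = 0.0119 and 0.00173), and the smooth muscle actin gene Acta2 was at 50.03 and 56.9 FPKM in the Sox10+EpCAM+ libraries, 75.6 and 21.6 in the CD24+CD49f+ libraries and 63.6 to 71.8 in stroma.

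Likeness of profile was measured as the root mean square difference of centred log2(FPKM + 1) over the 7 libraries, as a description with no test, since the libraries share the contrast of epithelium and stroma. Keratins and genes with Gm or Rik names were left out of the ranking of nearest genes. Nearest to Krt14 were Plet1 (0.167), Cldn4 (0.21) and Cldn6 (0.22), a surface protein of epithelial progenitors and 2 claudins of tight junctions. Nearest to Krt8 were Epcam (0.26), Col9a3 (0.289) and Cldn4 (0.332), while its partner Krt18 was nearer than any of them at 0.102. Krt14 was nearer to Krt18 (0.235) and Krt8 (0.315) than to its own partner Krt5 (0.554). The added 1 FPKM shrinks the differences of genes at lower levels such as Krt5. Likeness was measured with this pseudocount alone, so whether it shapes the order was not tested. With a pseudocount of 0.1, the differences from stroma in the CD24 sort were 6.99 for Krt14, 7.08 for Krt5, 6.63 for Krt18 and 7.25 for Krt8. In the Sox10 sort they were 6.21, 6.28, 6.56 and 6.78 for the same genes. Nearest to Krt23 were Mapk13 (0.104), Elf5 (0.112), a factor of the luminal alveolar lineage, and Apobec1 (0.115). Nearest to Krt10 were the widely expressed genes Ppp1ca (0.0334), Siah1a (0.0487) and Plp2 (0.0516), and Krt10 stood 2.07 to 2.89 from Krt17, Krt5, Krt14, Krt18 and Krt8.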

How the data were processed

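The deposited table gives FPKM per gene and library, per the file headers. Per the submitters' processing notes, STAR and Cufflinks were used with GRCm38/mm10, without versions; per the labels' protocols, the TruSeq RNA kit was used and both ends of each fragment were read for 100 bases. Of the table's entries 8 added sequences were left out, and 5 member symbols written in capitals were matched without regard to case. Tests used log2(FPKM + 1), which understates differences between low values, on the 14418 genes that reached 1 FPKM in at least 2 libraries. For them limma 3.58.1 (R 4.3.3) was run on 4 group means with a mean-variance trend, which leaves 3 residual degrees of freedom. The comparison over both sorts fitted cell type plus strategy, with 4. All tests are two-sided, p-values were adjusted by Benjamini and Hochberg's method over those 14418 genes, and the threshold is 0.05. The fit was tested on simulated data.

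FPKM keeps no counts, so depth was estimated from values of up to 3 fragments on single-transcript genes of 800 to 6000 bases (80% to 85.9% lay within 0.15 of a whole number, where an even spread gives 30%). The depth and a subtraction from transcript length were chosen to make this percentage as high as possible, so 30% is not a fair baseline for it. No count model was run. The members and gene lists were chosen with earlier results of these data known. Named genes were all members, other keratins at 1 FPKM in 2 libraries, up to 3 called members per list with the largest difference, and the 3 most similar genes for Krt14, Krt8, Krt10 and Krt23. The most similar genes were sought outside the keratins and the genes with Gm or Rik names. Others (Plec, Klf4, Hes1, Krt1, Acta2, Itga6, Trp63, Esr1, Prlr, Nefm, Lmna and the epidermal genes) were named after their values were seen. Krt85 and Eppk1 were not found by name. Some listed genes that the rule would name are not reported here. Replicate numbers follow accession order, and the labels do not say whether replicates came from separate litters, so p-values measure only the spread between these libraries. Alternatives were other pseudocounts, filters, scalings, variance models and sample sets, and leaving out each library. Other tables came from Python 3.11.15 (pandas 2.3.3 and numpy 2.4.6), figures from matplotlib 3.10.9.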

Additional observations from a re-analysis of the deposited data

How the results depend on the processing

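A total of 5 limits bear on the keratin results: 1 EpCAM-negative library, 2 libraries in the other groups, FPKM in place of counts, unstated strand, and stroma values of few fragments. The number of members called higher against stroma was 6 to 9 in the CD24 sort, 7 to 10 in the Sox10 sort and 7 to 10 over both sorts across the alternatives run, and no member was called lower. In each, the highest number came from a fit that also called more of all genes than the main fit. The numbers of all genes called, given below, varied widely over the same alternatives, so the member counts describe the members only. The strict filter of 5 FPKM tests neither Krt15, Krt7 nor Krt10. No paired analysis was possible because the labels give the libraries no shared replicate numbers. EpCAM-negative stroma could not be left out of the Sox10-sort, stroma and between-sort comparisons, which would have lost a group. For the changes below the cause was not tested.

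The single call between the fMaSC fractions (Krt23) fell to 0 with a pseudocount of 0.1, no filter, the strict filter, TPM scaling or only the groups compared, and ranged over 0 to 6 when leaving out libraries. The between-sort call count of members ranged over 0 to 1. Genes called in the CD24 sort numbered 971 with the strict filter, 509 with TPM and 785 with its own groups (426 to 2353 leaving out libraries). In the Sox10 sort they numbered 2487, 2128 and 7878 (1674 to 5758), over both sorts 1718 with TPM (1563 to 6374), and between fMaSC fractions 893, 425 and 847, and 724 without a filter (269 to 2509). Between stroma fractions they numbered 235 without a filter and 29 with own groups (0 to 11). Between sorts they numbered 421 and 59 with pseudocounts of 0.1 and 5, 43 with TPM and 104 with quantile normalization (4 to 974).

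TPM scaling moved the median of all genes to -0.11, -0.59, -0.30 and -0.22 in the CD24 sort, the Sox10 sort, both sorts and the fMaSC fractions. It turned Krt10 to -0.04 in the Sox10 sort, which is 0.54 above that median, and to -0.10 between fMaSC fractions. The share of calls that were higher was 72.6% in the CD24 sort (60.9% with TMM, 52.5% with quantile normalization), 47.9% in the Sox10 sort (27.2% with TPM), 62.2% over both (46.0%, 47.9% and 44.7% with TPM, TMM and quantile normalization) and 19.5% between fMaSC fractions (3.06% with TPM, 39.2% with quantile normalization). Between sorts it was 5.05% (20.9% with TPM), and between stroma fractions 50% of 4 calls (33.3% with quantile normalization).

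Signs turned in comparisons where the member was not called. Between sorts, a pseudocount of 0.1 gave -0.81 for Krt5, -0.78 for Krt14, -0.47 for Krt8 and -0.07 for Krt18, and TPM gave -0.17 for Krt5, -0.34 for Krt14, -0.23 for Krt8, -0.12 for Krt18, -0.13 for Krt19 and -0.09 for Krt10. TPM moved the median of all genes in this contrast to -0.47, so these 6 remained 0.13 to 0.38 above it. Quantile normalization gave 0.30 for Krt7. Leaving out libraries gave ranges of -0.10 to 0.43 for Krt5, -0.25 to 0.51 for Krt14, -0.18 to 0.67 for Krt8, -0.13 to 0.83 for Krt18, -0.44 to 0.96 for Krt19, -0.58 to 0.46 for Krt7 and -0.03 to 0.41 for Krt10. Between fMaSC fractions the ranges were -0.13 to 1.27 for Krt19, -0.42 to 0.62 for Krt7 and -0.18 to 0.26 for Krt10, and between stroma fractions -0.04 to 0.00 for Krt23.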

Other observations

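Of 8 tested intermediate filament genes other than keratins, 1 was called higher and 0 lower in the CD24 sort, and 0 higher and 4 lower in the Sox10 sort, against 7.78% higher, 2.94% lower, 12.5% higher and 13.6% lower of all genes in these sorts. Vim, which encodes vimentin of mesenchymal cells, was at 284 and 332 FPKM in the Sox10+EpCAM+ libraries, 878 and 1135 in the CD24+CD49f+ libraries and 1326 to 1579 in stroma. The values increased in that order without overlap, and it was lower in fMaSC in the Sox10 sort (-2.11, limma adjusted p = 0.0251) but did not pass in the CD24 sort (-0.59, adjusted p = 0.422). Des, desmin of muscle, was at 0.0975 and 0.149 FPKM in the Sox10+EpCAM+ libraries, 4.25 and 3.01 in the CD24+CD49f+ libraries and 6.20 to 9.23 in stroma. Nefm, a neurofilament gene, was highest in CD24+CD49f+ fMaSC, at 7.67 and 3.58 FPKM, against 0.274 and 0.280 in Sox10+EpCAM+ fMaSC and 1.41 to 2.39 in stroma, and was called higher in the CD24 sort (1.30, limma adjusted p = 0.0497) and lower in the Sox10 sort (-1.41, 0.0393). Nes, nestin, was lower in the Sox10 sort (-1.66, limma adjusted p = 0.0228) and did not pass in the CD24 sort (-0.04, 0.947). The lamin gene Lmna, used by nearly all cells, was at 108 to 181 FPKM in all 7 libraries and passed in neither sort.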
